A study of Mus musculus with 9 samples.

Results

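The genes of the interferon response and of antigen presentation were followed in primary mouse myocytes treated with TGFβ1, the ligand that starts TGFβ signaling, or with ITD-1, a small molecule that makes cells degrade their type II receptor for TGFβ. The list names 50 genes, and a probe set with the gene symbol was matched for 49 of them, out of 24704 tested probe sets in all. *Ifi44* was not analysed here. By role the 49 genes comprise 4 receptors, 6 transcription factors, 27 antiviral effectors and their regulators, 5 interferon-inducible GTPases and 7 genes of antigen processing and presentation. The list was chosen by name and no measured value enters the rule, though earlier results of these data were known when it was chosen.

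The arrays were Affymetrix MouseGene 2.0 ST, 9 in all, with 3 each for TGFβ1-treated, ITD-1-treated and control myocytes. All cells came from C57BL/6 mice, of the N substrain by the study's methods, as satellite-cell-derived myoblasts, the precursors that fuse into muscle fibers. They had differentiated for 24 h before treatment, and the treatment lasted a further 24 h. TGFβ1 was given at 20 ng/ml. For ITD-1 the labels give 5 mM and the study's methods 5 µM. The labels do not say that arrays of a group came from separate animals, so p-values measure the spread between these samples. Values are log2 signals after RMA, so a difference of 1 means a doubling. A gene was called at a limma p under 0.05 after Benjamini-Hochberg adjustment over all 24704 probe sets. With 3 arrays a side, no exact permutation p can be smaller than 0.1, so the spread shared across genes carries the test.

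Interferons bind paired receptors at the cell surface, IFNAR1 with IFNAR2 for type I interferons and IFNGR1 with IFNGR2 for interferon gamma, and the receptors act through Janus kinases. The type I signal reaches DNA through a complex that holds STAT2 and IRF9 and reads the interferon-stimulated response element (ISRE), while the interferon gamma signal acts on gamma-activated sites (GAS). The induced genes encode proteins that sense or block viral RNA, GTPases that attack intracellular microbes, and the machinery that cuts proteins into peptides and loads them on MHC class I. Skeletal muscle cells carry little MHC class I at rest and gain it under interferon or in inflamed muscle.

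The promoters of the list are shown because the ISRE and GAS cores are what ties most of these genes to interferon. RefSeq promoter windows of 300 bases around the gene start, on build GRCm38.p6, were matched for 41 of the 49 members. The ISRE core was searched as GAAA, any 2 bases and GAAA, and the GAS core as TTCNNNGAA, on both strands. The ISRE core stood in 18 of 41 member promoters (43.9%), against 1079 of 27025 genes (3.99%), and the GAS core in 16 of 41 (39.0%), against 2582 of 27025 (9.55%). Capitals mark the ISRE match in the first 7 windows below and the GAS match in the last, and a match on the other strand reads TTTC, any 2 bases and TTTC. The first 4 windows belong to the 4 members with an ISRE core that were called lower in at least 1 comparison, and the next 3 to the 3 such members called higher. With a matched promoter, 5 members were called lower and 9 higher in at least 1 comparison. Of all probe sets 2.78% were called lower and 3.65% higher with TGFβ1 against control, and 4.26% and 5.92% against ITD-1. The motifs of called genes outside the list were not counted, and a link between motif and direction was not tested.
Ifit1, chr19:34640760-34640819, + strand: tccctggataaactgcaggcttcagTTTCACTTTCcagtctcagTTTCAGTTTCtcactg
Ifih1, chr2:62646206-62646235, - strand: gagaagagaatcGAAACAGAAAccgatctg
Stat2, chr10:128270251-128270310, + strand: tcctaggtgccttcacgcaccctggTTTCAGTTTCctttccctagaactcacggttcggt
Irf2, chr8:46739495-46739554, + strand: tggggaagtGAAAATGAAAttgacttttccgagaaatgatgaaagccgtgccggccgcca
Irgm1, chr11:48871421-48871480, - strand: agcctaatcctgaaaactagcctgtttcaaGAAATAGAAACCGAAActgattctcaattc
B2m, chr2:122147523-122147582, + strand: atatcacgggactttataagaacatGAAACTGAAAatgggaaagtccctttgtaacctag
Ifitm3, chr7:141010706-141010735, - strand: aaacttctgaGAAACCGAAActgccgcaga
In the window of Ifit1 2 ISRE cores stand side by side, and in that of Irgm1 2 cores share bases. The promoter of Ifitm3 also holds a GAS core that shares bases with the ISRE core shown, and the window of Irf2 holds a GAS core, in lower case, after its ISRE core. The last window, for Ifnar1, the receptor gene called higher with TGFβ1 than in controls, holds a GAS core. The promoter of Ifngr1, called higher only against ITD-1, holds none, and that of Ifnar2, which was not called, holds one.
Ifnar1, chr16:91485200-91485229, + strand: ggcgggggcgTTCACGGAAggggcggggcg
A match is a description of the letters and not a measured site.

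With TGFβ1, 7 of the 49 members were higher than in control myocytes and 2 were lower, while 40 did not pass the test. Of all tested probe sets 6.43% passed it, 3.65% higher and 2.78% lower. *Usp18*, *Dtx3l*, *Irf9*, *Parp9*, *Ifnar1*, *Oasl2* and *Tapbp* rose, and *Ifit1* and *Ifih1* fell. The median log2 difference over the members was 0.08, against -0.01 over all probe sets. With TGFβ1 against ITD-1, 10 members were higher and 4 lower, where 10.2% of all probe sets passed, 5.92% higher and 4.26% lower. *Ifnar1*, *Irf9*, *Usp18*, *Parp9*, *Dtx3l* and *Tapbp* were higher here as well, with *Ifngr1*, *Ifitm3*, *Irgm1* and *B2m*, and *Ifit1*, *Stat2*, *Irf2* and *Trim25* were lower. The comparisons share arrays, so their values stand side by side and do not support each other. With ITD-1 against control no member passed the test, where 0.636% of all probe sets did, 0.0607% higher and 0.575% lower.

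By other rules the members ran as follows. Against control, all 3 TGFβ1 arrays lay above the controls for 16 members and below them for 4, as they did for 10.4% and 10.1% of all probe sets. At an unadjusted limma p under 0.05 13 members were higher and 9 lower (8.44% and 7.68% of all probe sets), and by the study's own criteria, an unadjusted p under 0.05 with at least 1.5-fold, 5 were higher and 1 lower (2.06% and 1.28%). Against ITD-1 the TGFβ1 arrays lay above for 17 members and below for 8 (11.3% and 12.1%), 18 members were higher and 9 lower at the unadjusted p (10.8% and 10.4%), and 4 were higher and 3 lower by the study's criteria (3.49% and 1.84%). With ITD-1 against control the arrays lay above for 7 members and below for 5 (5.22% and 5.92%), 5 members were higher and 2 lower at the unadjusted limma p (3.42% and 4.46%), and none met the study's criteria (0.085% higher and 0.546% lower of all probe sets).

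**Figure D1:**
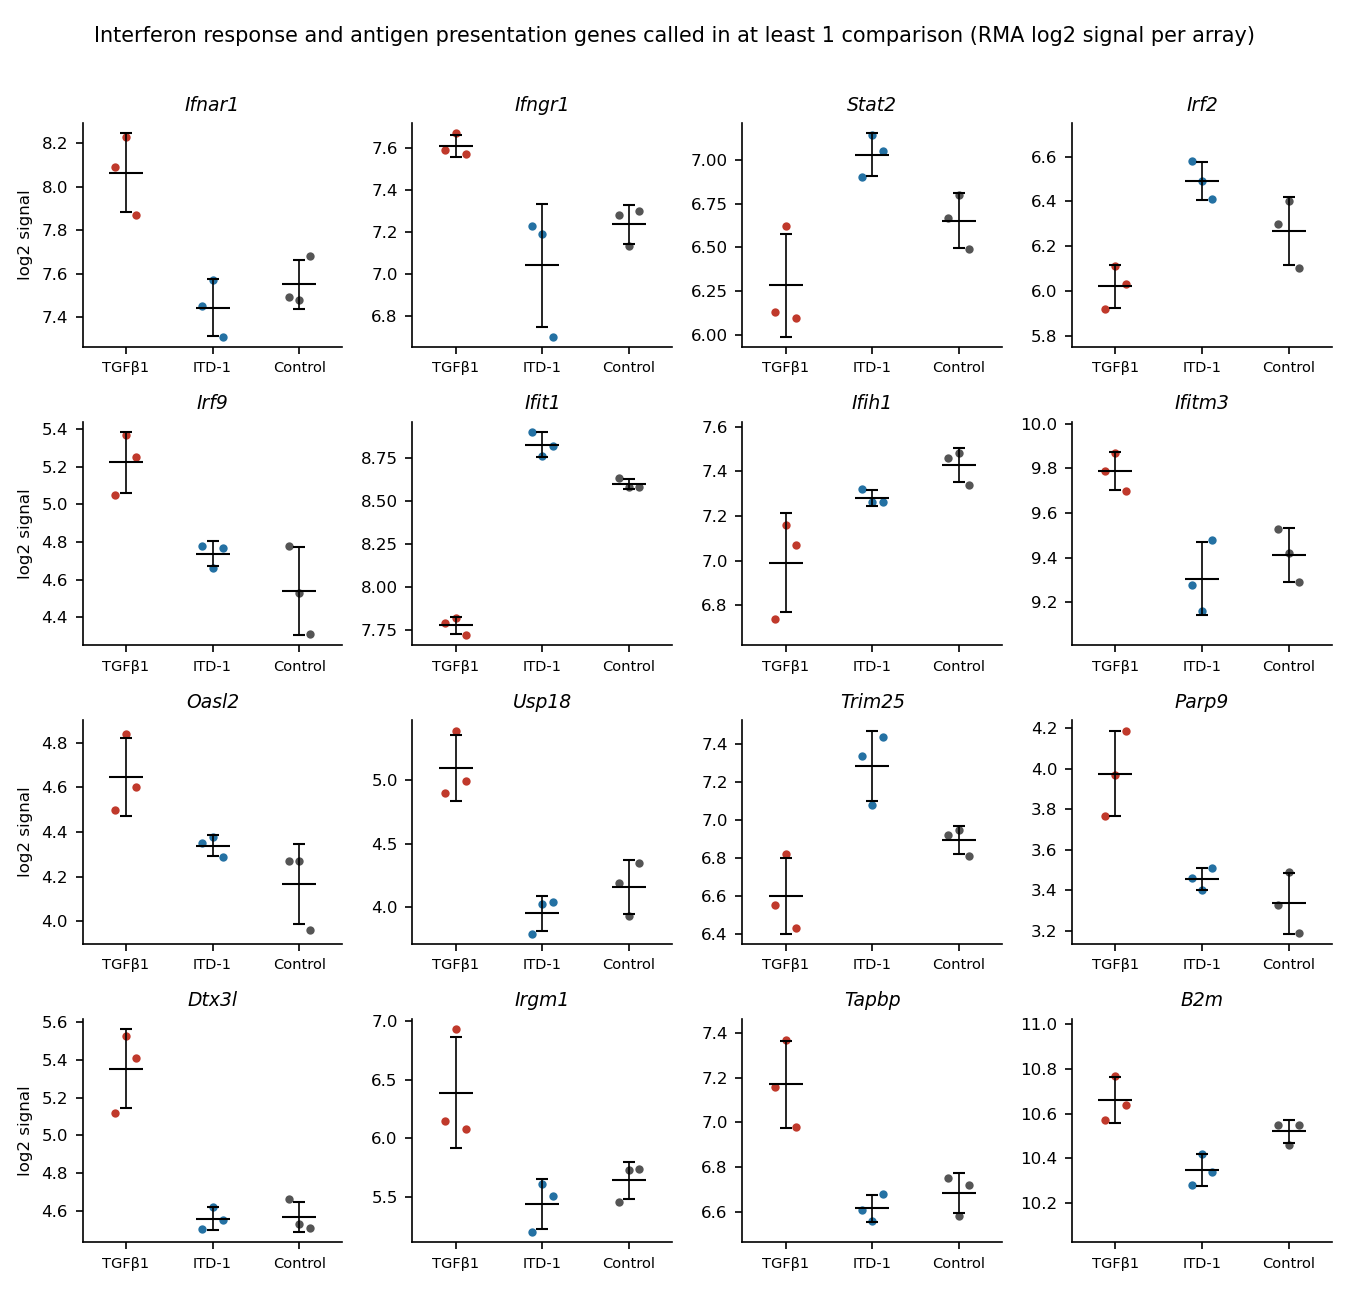
RMA log2 signal of the 16 members called in at least 1 comparison, on each of 3 TGFβ1, 3 ITD-1 and 3 control arrays (points), with the mean and SD of each group (bars), each panel having its own axis that does not start at 0. The TGFβ1 arrays lay apart from the control arrays for all but *Stat2*, *Irf2* and *Trim25*. For *Stat2*, *Irf2*, *Trim25* and *Ifit1* the ITD-1 arrays lay above all others.

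The count for TGFβ1 against control moved with the processing. Blocking on the replicate number gave 9 calls, 8 of them shared, beside 1518 calls over all probe sets. The same block with the ITD-1 arrays left out, chosen after seeing the data, gave 4 calls, 3 of them shared, beside 1511 over all probe sets. *Ifnar1*, *Irf9*, *Ifih1*, *Oasl2*, *Parp9* and *Tapbp* were then no longer called. Without control replicate 2 the count of members was 5, beside 1057 over all probe sets. *Ifit1*, *Usp18* and *Dtx3l* were called under every alternative run. TGFβ1 replicate 2 had the highest signal of its group for 32 of the 49 members (65.3%), against 34.1% of all tested probe sets. It was highest for 6 of the 7 members called higher than control and for 9 of the 10 called higher than with ITD-1. Of all genes called higher than with ITD-1 it was highest for 56.6%. Without this array 4 members were higher and 3 lower than control, beside 619 and 539 of all 24704 probe sets. Against ITD-1 5 members were then higher and 5 lower, beside 1098 and 865. The part of this array in the results above was otherwise not tested.

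All 4 receptor genes had a higher mean with TGFβ1 than in the other groups. 1 of the 4 passed the test against control and 2 passed it against ITD-1, beside 6.43% and 10.2% of all probe sets. *Ifnar1*, which encodes a chain of the type I receptor, read 8.09, 8.23 and 7.87 with TGFβ1, 7.45, 7.57 and 7.31 with ITD-1 and 7.49, 7.48 and 7.68 in controls. Every TGFβ1 array lay above the other 6, and the gene was 1.43-fold higher than control (log2 difference 0.52, standard error 0.11, adjusted p = 0.0204) and 1.54-fold higher than with ITD-1 (adjusted p = 0.00488). Against control the call ended without control replicate 1 or 2 or TGFβ1 replicate 1 or 2 (adjusted p 0.0769 to 0.0865). *Ifnar2*, the partner chain, read 7.32, 7.43 and 7.16 with TGFβ1, 7.01, 7.10 and 6.92 with ITD-1 and 7.11, 7.01 and 7.03 in controls. The TGFβ1 arrays were again the 3 highest, but the log2 difference of 0.25 from control (95% interval 0.06 to 0.44) had an adjusted p of 0.144.

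*Ifngr1*, the ligand-binding chain of the interferon gamma receptor, read 7.59, 7.67 and 7.57 with TGFβ1, 7.23, 7.19 and 6.70 with ITD-1 and 7.28, 7.13 and 7.30 in controls. The TGFβ1 arrays lay above all others, while the ITD-1 and control arrays overlapped, and the gene was 1.48-fold higher with TGFβ1 than with ITD-1 (log2 difference 0.57, standard error 0.13, adjusted p = 0.0211), while the difference of 0.37 from control did not pass (adjusted p = 0.167). Without any 1 of the 3 TGFβ1 arrays the first of these calls ended (adjusted p 0.05 to 0.0801). *Ifngr2*, the second chain, read 8.03, 8.02 and 7.97 with TGFβ1, 7.51, 7.45 and 7.82 with ITD-1 and 7.98, 7.82 and 7.61 in controls. Its TGFβ1 arrays overlapped the controls, and neither difference passed the test.

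The type I receptor genes and *Ifngr2* are neighbours in RefSeq on GRCm38.p6, in the order *Ifnar2*, *Il10rb*, *Ifnar1*, *Ifngr2*, with no other protein-coding gene between them. *Il10rb*, which encodes a shared chain of the interleukin 10 and interferon lambda receptors and is no member of the list, was 1.55-fold higher with TGFβ1 than in controls (log2 difference 0.63, standard error 0.09, adjusted p = 0.00273) and 1.95-fold higher than with ITD-1 (adjusted p = 0.000108). *Dtx3l* and *Parp9*, also neighbours, both rose, and *Parp14* beside them had a log2 difference of 0.02. *Oasl2* rose, while its neighbour *Oasl1*, named here after its values were seen, was not called. *Oasl1* read 5.56, 5.65 and 5.58 with TGFβ1, 5.68, 5.63 and 5.70 with ITD-1 and, higher than with either, 5.98, 5.87 and 5.71 in controls. Further runs of neighbours are not described. The genes *Gbp8*, *Gbp9*, *Gbp4* and *Gbp10* follow each other as well and all 4 fell with TGFβ1, as given below. *Psmb9*, *Tap1*, *Psmb8* and *Tap2*, which sit side by side in the MHC region, had differences from -0.09 to 0.14 and no call.

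**Figure D2:**
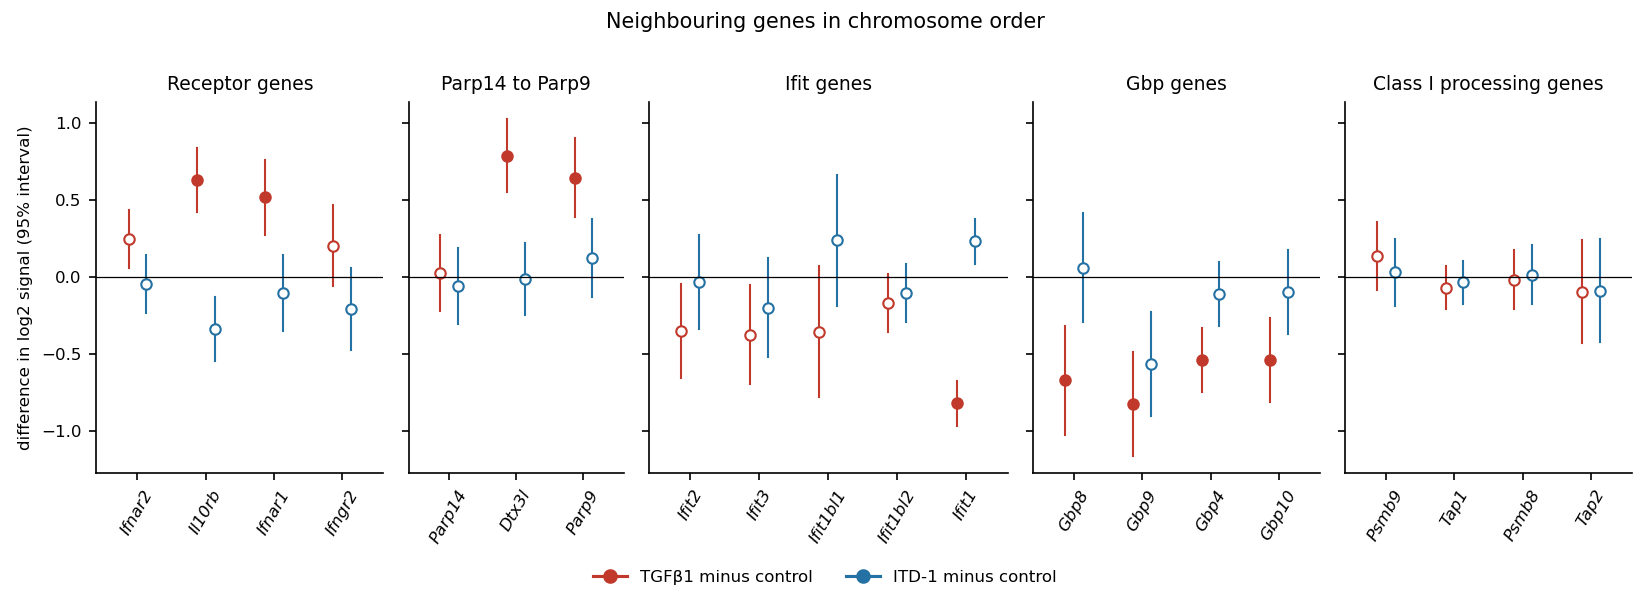
Differences in log2 signal from control with TGFβ1 (red) and ITD-1 (blue) for 5 runs of neighbouring genes, in RefSeq GRCm38.p6 order, with 95% intervals from limma and filled points for an adjusted p under 0.05. *Dtx3l* and *Parp9* lie above 0 with TGFβ1, the 4 Gbp genes and *Ifit1* lie below it, and the class I processing genes lie within 0.14 of it.

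Among the 6 transcription factors, *Irf9* and *Stat2*, whose products work in the same complex, had differences of opposite sign. *Irf9* read 5.05, 5.37 and 5.25 with TGFβ1, 4.78, 4.66 and 4.77 with ITD-1 and 4.78, 4.53 and 4.31 in controls. The TGFβ1 arrays were the 3 highest, 1.60-fold above control (log2 difference 0.68, standard error 0.12, adjusted p = 0.00862) and 1.40-fold above ITD-1 (adjusted p = 0.0328). The second call ended without any 1 of 6 arrays (adjusted p 0.0563 to 0.123), namely control replicate 2, TGFβ1 replicates 2 and 3 and each ITD-1 array, and with the replicate block (adjusted p = 0.063). *Stat2* read 6.13, 6.62 and 6.10 with TGFβ1, 6.90, 7.14 and 7.05 with ITD-1 and 6.67, 6.80 and 6.49 in controls. The ITD-1 arrays lay above all others, and the TGFβ1 arrays overlapped the controls. Between the treatments *Stat2* was lower with TGFβ1 by 1.68-fold (log2 difference -0.75, standard error 0.14, adjusted p = 0.00742), while neither treatment differed from control past the threshold (log2 difference -0.37 with TGFβ1, adjusted p = 0.215, and 0.38 with ITD-1, adjusted p = 0.518).

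*Irf2*, whose product binds the same DNA element and can repress it, read 5.92, 6.11 and 6.03 with TGFβ1, 6.58, 6.49 and 6.41 with ITD-1 and 6.30, 6.40 and 6.10 in controls. It was lower with TGFβ1 than with ITD-1 by 1.39-fold (log2 difference -0.47, standard error 0.09, adjusted p = 0.0084), with the control mean between them. *Irf1*, *Irf3* and *Irf7*, which encode factors that switch on interferon genes or their targets, passed no test, with differences from control of 0.21, -0.19 and -0.01 for TGFβ1 and of 0.05, -0.16 and -0.09 for ITD-1.

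Of the 27 antiviral effectors and regulators, 4 rose and 2 fell with TGFβ1 against control (3.65% and 2.78% of all probe sets). *Ifit1*, whose product binds viral RNA that lacks the host cap mark, had the smallest p of the list. Its arrays read 7.79, 7.82 and 7.72 with TGFβ1, 8.90, 8.76 and 8.82 with ITD-1 and 8.63, 8.58 and 8.58 in controls. No group overlapped another, in the order ITD-1, control, TGFβ1. In TGFβ1-treated cells *Ifit1* fell by 0.82 on the log2 scale (1.76-fold, standard error 0.06, adjusted p = 7.54e-05) and stood 2.07-fold lower than with ITD-1 (adjusted p = 6.99e-06). Its rise of 0.23 with ITD-1 did not pass (95% interval 0.09 to 0.38, adjusted p = 0.267). The related *Ifit2* and *Ifit3* had differences of -0.35 and -0.37 with TGFβ1 and did not pass.

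*Ifih1* encodes MDA5, a cytoplasmic sensor of long viral RNA. It read 6.74, 7.16 and 7.07 with TGFβ1, 7.32, 7.26 and 7.26 with ITD-1 and 7.46, 7.48 and 7.34 in controls. The TGFβ1 arrays were the 3 lowest, and the gene fell by 0.44 on the log2 scale against control (standard error 0.10, adjusted p = 0.0343). This call ended without any 1 of 7 arrays, TGFβ1 replicate 2 and ITD-1 replicate 3 being the exceptions (adjusted p 0.0548 to 0.129), and with the replicate block (adjusted p = 0.0569).

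*Usp18*, which encodes the protease that takes ISG15 off proteins and binds the type I receptor to damp it, read 4.90, 5.39 and 4.99 with TGFβ1, 3.79, 4.02 and 4.04 with ITD-1 and 4.19, 3.93 and 4.35 in controls. The TGFβ1 arrays were the 3 highest, by 1.92-fold over control (log2 difference 0.94, standard error 0.14, adjusted p = 0.00369) and 2.21-fold over ITD-1 (adjusted p = 0.000631). *Isg15*, the ubiquitin-like modifier itself, had a difference of -0.23 and did not pass. Its mean of 4.03 over all arrays lay just below 4.14, the median of the tested probe set means. *Oasl2*, of the oligoadenylate synthetase family, read 4.50, 4.84 and 4.60 with TGFβ1, 4.35, 4.38 and 4.29 with ITD-1 and 4.27, 4.27 and 3.96 in controls. It was 1.40-fold higher than control (adjusted p = 0.0286), a call that ended without any 1 of the 3 control arrays or TGFβ1 replicate 2 or 3 (adjusted p 0.0503 to 0.0942).

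*Dtx3l* and *Parp9* encode a ubiquitin ligase and its partner, which act together in DNA repair and in the interferon response. *Dtx3l* read 5.12, 5.53 and 5.41 with TGFβ1, 4.50, 4.62 and 4.55 with ITD-1 and 4.66, 4.53 and 4.51 in controls. *Parp9* read 3.77, 3.97 and 4.19 with TGFβ1, 3.46, 3.40 and 3.51 with ITD-1 and 3.33, 3.49 and 3.19 in controls. *Parp9* is thus a dim gene, its mean of 3.59 over all arrays lying below 4.14, the median of the tested probe set means. For both genes every TGFβ1 array lay above the other 6. *Dtx3l* was higher than control (log2 difference 0.79, standard error 0.10, adjusted p = 0.00153) and so was *Parp9*, by 1.56-fold (log2 difference 0.64, standard error 0.11, adjusted p = 0.00758). Against ITD-1 *Dtx3l* was 1.74-fold higher (adjusted p = 0.000768), and *Parp9* had a log2 difference of 0.52 (adjusted p = 0.0155), a call lost without TGFβ1 replicate 2 or ITD-1 replicate 2 (adjusted p 0.0522 to 0.0594).

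*Trim25*, which encodes a ubiquitin ligase of RNA sensing, was another gene whose ITD-1 arrays stood highest. It read 6.55, 6.82 and 6.43 with TGFβ1, 7.34, 7.08 and 7.44 with ITD-1 and 6.92, 6.95 and 6.81 in controls. The gene was 1.61-fold lower with TGFβ1 than with ITD-1 (log2 difference -0.68, standard error 0.12, adjusted p = 0.0046), with differences from control of -0.30 for TGFβ1 (adjusted p = 0.246) and 0.39 for ITD-1 (adjusted p = 0.329). *Ifitm3*, which encodes a membrane protein that blocks the fusion of viruses with the cell, read 9.79, 9.87 and 9.70 with TGFβ1, 9.28, 9.16 and 9.48 with ITD-1 and 9.53, 9.42 and 9.29 in controls. Its TGFβ1 arrays were the 3 highest, 1.40-fold above ITD-1 (adjusted p = 0.0119, and 0.0531 without TGFβ1 replicate 2), and the log2 difference of 0.38 from control just missed the threshold (adjusted p = 0.0572).

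The other 19 effectors passed no test in any comparison. Among them were *Mx1* and *Mx2*, listed in RefSeq as transcribed pseudogenes, with differences of 0.05 and 0.08 with TGFβ1, and *Oas1a* and *Oas2* (0.01 and -0.13). These genes were dim, with means over all arrays of 2.80, 3.78, 2.93 and 3.51, below 4.14, the median of the tested probe set means. The others included *Rsad2*, which encodes viperin (difference -0.26), and *Eif2ak2*, which encodes the RNA-activated kinase PKR (0.42, adjusted p = 0.113). *Bst2*, which encodes the virus-tethering protein tetherin and is given here after its values were seen, read 4.47, 4.47 and 4.52 with TGFβ1, 4.51, 4.47 and 6.25 with ITD-1 and 4.34, 4.11 and 4.46 in controls. A single array, ITD-1 replicate 3, made its mean difference of 0.77 with ITD-1 (95% interval -0.11 to 1.65, adjusted p = 0.699). Members of the Ifit, Ifitm, Oas and Gbp families and the MHC genes are alike in sequence, so their probe sets may pick up each other's transcripts.

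**Figure D3:**
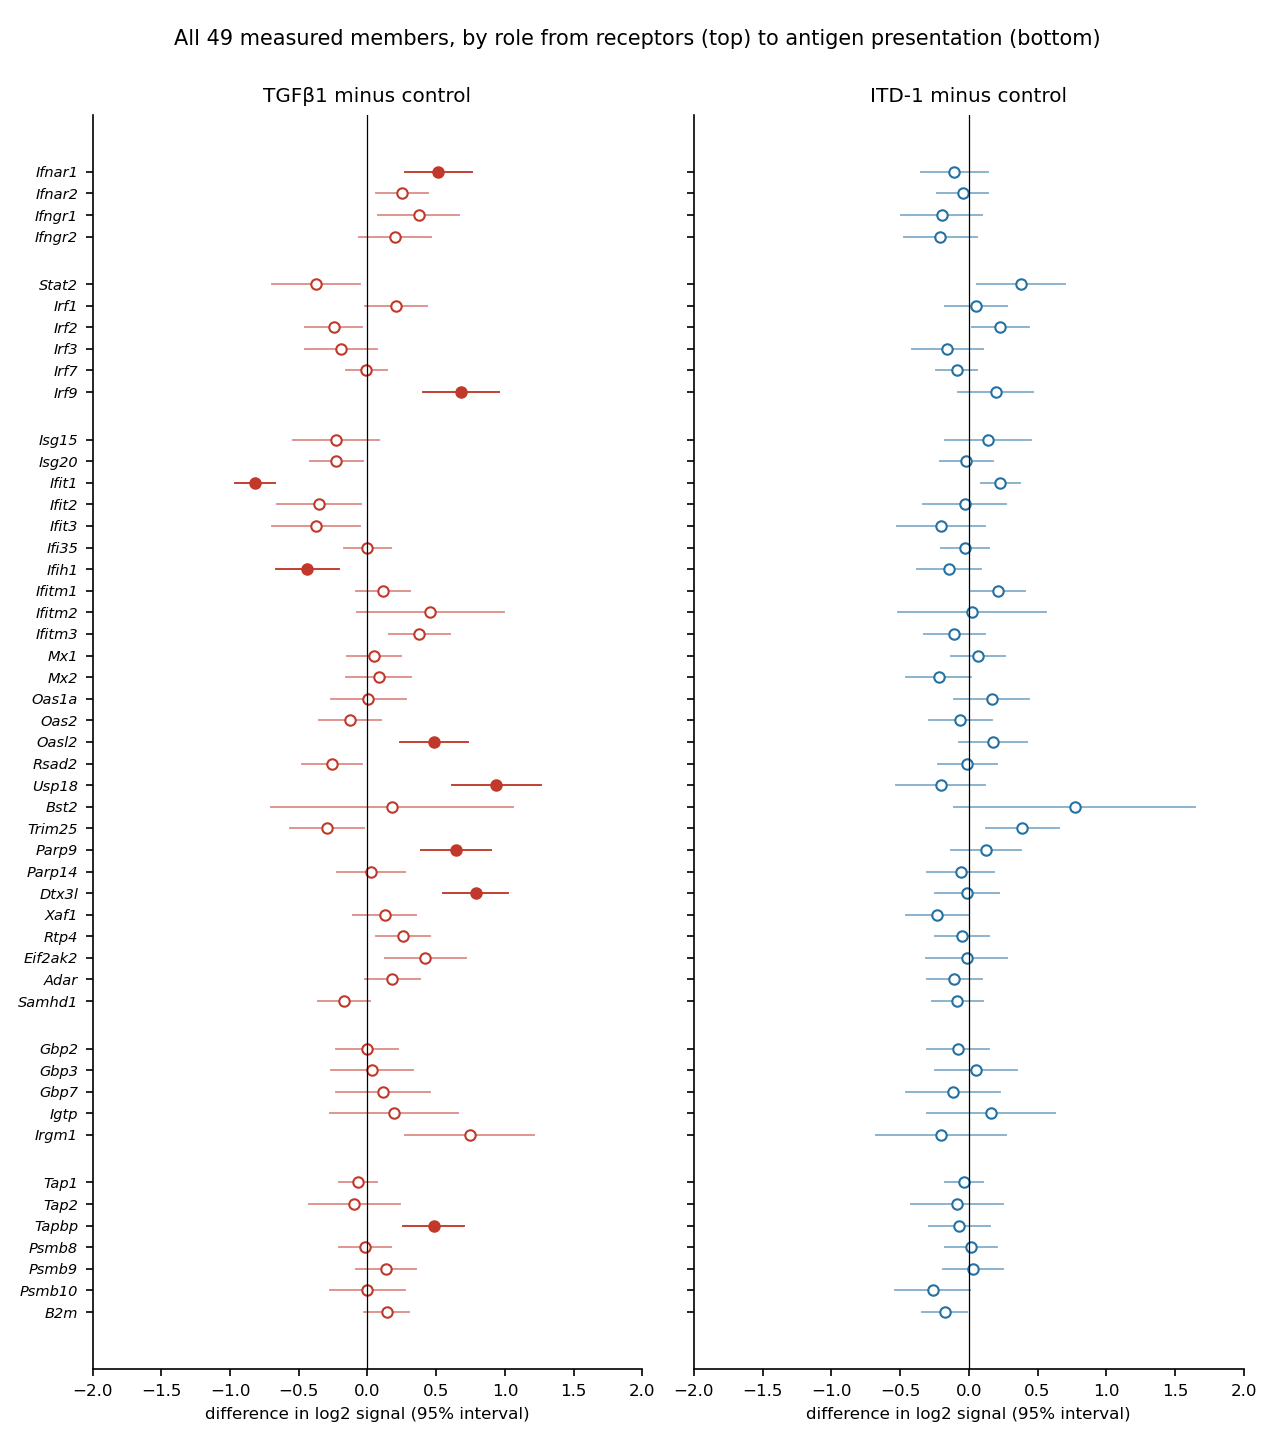
Difference in log2 signal from control with TGFβ1 (left) and ITD-1 (right) for all 49 measured members, grouped by role, with 95% intervals from limma and filled points for an adjusted p under 0.05. With TGFβ1 7 members lie above 0 and 2 below it past the threshold, and with ITD-1 none.

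None of the 5 interferon-inducible GTPases passed the test against control, where 6.43% of all probe sets did with TGFβ1 and 0.636% with ITD-1. *Irgm1*, which encodes an immunity-related GTPase that regulates autophagy, read 6.15, 6.93 and 6.08 with TGFβ1, 5.20, 5.61 and 5.51 with ITD-1 and 5.46, 5.73 and 5.74 in controls. Its TGFβ1 arrays were the 3 highest and spread widely. It was 1.93-fold higher than with ITD-1 (log2 difference 0.95, standard error 0.21, adjusted p = 0.0174, and 0.07 without ITD-1 replicate 1), and 0.74 above control (95% interval 0.27 to 1.21, adjusted p = 0.0761). *Igtp*, a second gene of this family, read 4.71, 4.85 and 4.03 with TGFβ1, 4.42, 4.66 and 4.42 with ITD-1 and 4.42, 4.57 and 4.04 in controls. *Gbp2*, a guanylate-binding protein gene, read 3.50, 3.54 and 3.49 with TGFβ1, 3.54, 3.55 and 3.20 with ITD-1 and 3.55, 3.58 and 3.40 in controls. The groups overlapped for both. *Gbp3* and *Gbp7* had differences of 0.03 and 0.12 with TGFβ1. *Gbp2* and *Gbp3* were dim, with means of 3.48 and 2.86 over all arrays, below the median of 4.14.

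In antigen processing and presentation, *Tapbp* rose with TGFβ1 against control and the other 6 genes did not pass (6.43% of all probe sets passed). *Tapbp* encodes tapasin, which holds MHC class I at the peptide transporter for loading. It read 7.16, 7.37 and 6.98 with TGFβ1, 6.61, 6.56 and 6.68 with ITD-1 and 6.75, 6.58 and 6.72 in controls. Every TGFβ1 array exceeded the other 6, by 1.40-fold over control (log2 difference 0.48, standard error 0.10, adjusted p = 0.0185) and 1.46-fold over ITD-1 (adjusted p = 0.00583). The call against control ended without control replicate 2 or TGFβ1 replicate 1 or 2 (adjusted p 0.0521 to 0.0821). *B2m*, the light chain of every MHC class I molecule, read 10.57, 10.77 and 10.64 with TGFβ1, 10.28, 10.42 and 10.34 with ITD-1 and 10.55, 10.46 and 10.55 in controls. The order was TGFβ1, control, ITD-1 with no overlap, and the gene was 1.24-fold higher with TGFβ1 than with ITD-1 (log2 difference 0.31, standard error 0.07, adjusted p = 0.0231). Leaving out TGFβ1 replicate 2 or ITD-1 replicate 1 or 3 ended this call (adjusted p 0.0543 to 0.0845).

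The immunoproteasome genes and the transporter genes did not move past the threshold. *Psmb10*, a catalytic subunit of the immunoproteasome, read 6.19, 6.40 and 6.03 with TGFβ1, 5.73, 6.07 and 6.03 with ITD-1 and 6.33, 6.21 and 6.07 in controls. The TGFβ1 arrays overlapped both other groups, and the ITD-1 arrays lay just below the controls (log2 difference -0.26, adjusted p = 0.655). *Psmb8* and *Psmb9*, the other inducible subunits, differed from control by -0.02 and 0.14 with TGFβ1, and *Tap1* and *Tap2*, which encode the peptide transporter, by -0.07 and -0.09. *Psmb8* and *Psmb9* were dim, with means of 4.02 and 3.62 over all arrays, below the median of 4.14.

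With ITD-1 no member was called against control under any alternative run. The 95% interval of the difference lay within 2-fold for 48 of the 49 members, all but *Bst2*, and within 1.5-fold for 44. With TGFβ1 against control it lay within 2-fold for 45, with *Irgm1*, *Dtx3l*, *Usp18* and *Bst2* as exceptions. An arrangement with TGFβ1 and ITD-1 on either side of control was seen for *Ifit1* alone among the members called against control with TGFβ1, where the 3 groups did not overlap and the signs were opposite.

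The other genes of the pathway were described from 7 further lists. None of 17 interferon ligand genes was called in any comparison, with log2 values between 2.17 and 6.61 on all arrays. Of all probe sets 6.43% were called with TGFβ1 against control, 0.636% with ITD-1 against control and 10.2% between the treatments. *Ifnab* had the smallest p (difference 0.11 with TGFβ1, adjusted p = 0.692). Of 17 signaling genes, *Il10rb*, *Jak1* and *Jak2* were higher with TGFβ1 than in controls and none was lower (3.65% and 2.78% of all probe sets). Against ITD-1 5 were higher and none lower (5.92% and 4.26%). *Jak2*, the kinase of the interferon gamma receptor, read 6.36, 6.41 and 6.09 with TGFβ1, 5.69, 5.51 and 5.43 with ITD-1 and 5.61, 5.79 and 5.69 in controls. Its TGFβ1 arrays lay above the other 6, with a log2 difference of 0.59 from control (adjusted p = 0.00732). *Jak1*, which serves both receptors, was 1.24-fold higher than control (adjusted p = 0.0178), a call lost without control replicate 1 or 2 or TGFβ1 replicate 2 (adjusted p 0.0627 to 0.0687), and with the replicate block when the ITD-1 arrays were left out (adjusted p = 0.06).

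Of 13 nucleic acid sensing genes 1 was called, and it moved in opposite directions with the treatments. Against control 6.43% of all probe sets were called with TGFβ1 and 0.636% with ITD-1. *Sting1*, which encodes the adaptor that carries the alarm of cytoplasmic DNA, read 6.97, 7.15 and 6.66 with TGFβ1, 5.26, 5.03 and 5.28 with ITD-1 and 5.99, 5.99 and 5.90 in controls. No group overlapped another. The gene rose 1.95-fold with TGFβ1 (log2 difference 0.96, standard error 0.12, adjusted p = 0.00109), while ITD-1 lowered it 1.70-fold (log2 difference -0.77, adjusted p = 0.0249), so that it stood 3.32-fold higher with TGFβ1 than with ITD-1. The ITD-1 call ended without any 1 of 7 arrays, all but TGFβ1 replicates 2 and 3 (adjusted p 0.0531 to 0.127), and with the replicate block (adjusted p = 0.0652).

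**Figure D4:**
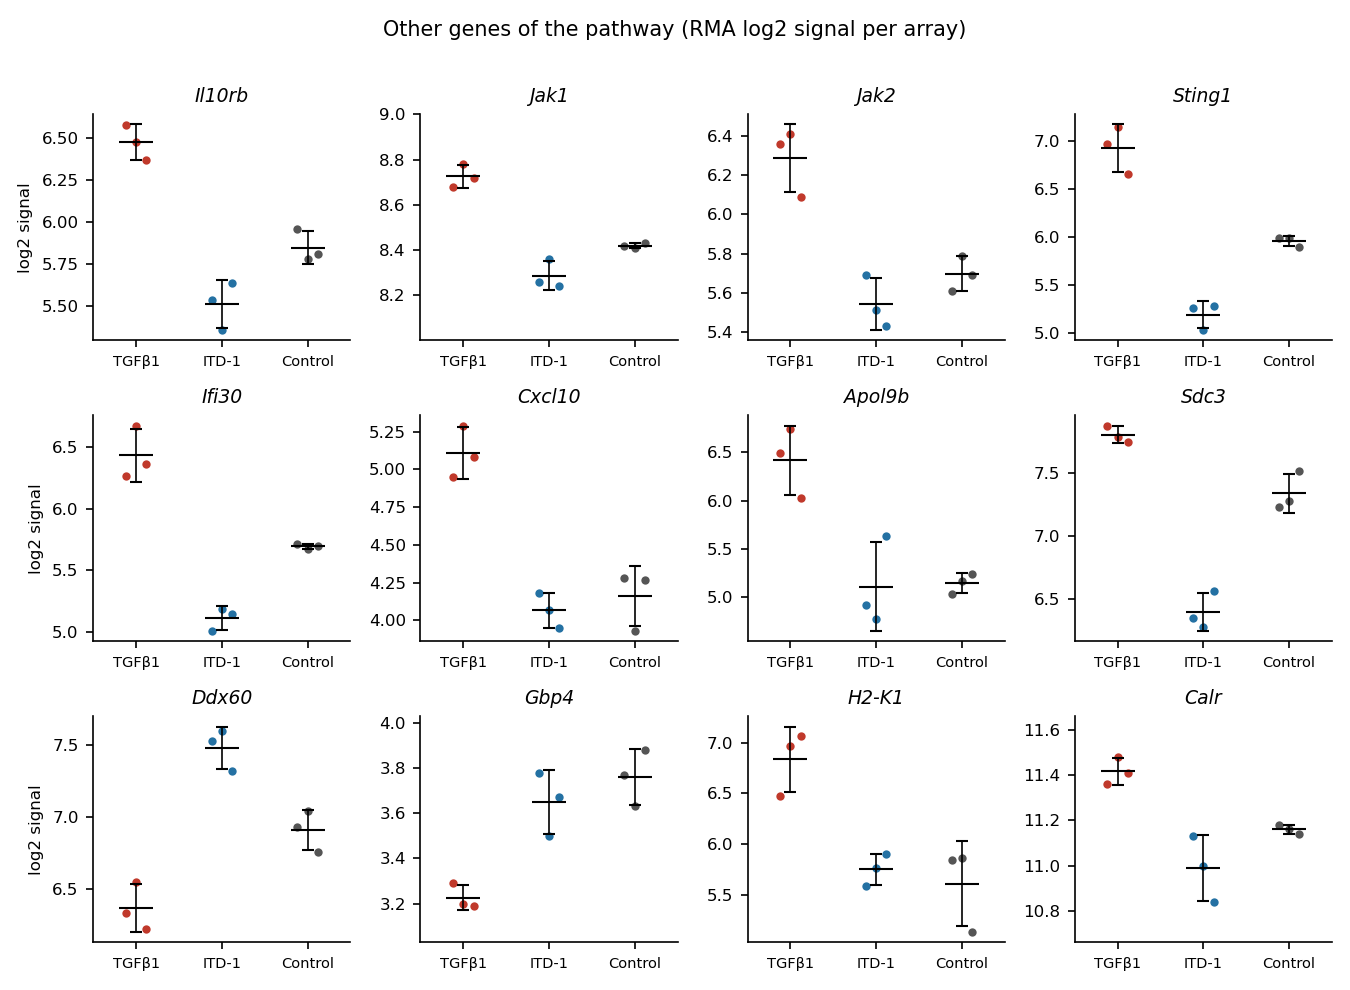
RMA log2 signal of 12 pathway genes outside the list on each TGFβ1, ITD-1 and control array (points), with the mean and SD of each group (bars), each panel having its own axis that does not start at 0. For *Sting1*, *Ifi30*, *Sdc3* and *Ddx60* no group overlaps another, the ITD-1 arrays being lowest for the first 3 and highest for *Ddx60*.

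Of 76 further interferon-stimulated genes 10 were higher and 5 lower with TGFβ1 than in controls (3.65% and 2.78% of all probe sets). With ITD-1 against control 0 were higher and 2 lower (0.0607% and 0.575%). With TGFβ1 against ITD-1 13 were higher and 4 lower (5.92% and 4.26%). *Cxcl10*, an interferon-induced chemokine, read 4.95, 5.29 and 5.08 with TGFβ1, 4.18, 4.07 and 3.95 with ITD-1 and 4.28, 3.93 and 4.27 in controls, 1.93-fold higher than control with no overlap (adjusted p = 0.00118). *Ifi30*, which encodes a lysosomal thiol reductase of antigen processing, was 1.66-fold higher with TGFβ1 than in controls (adjusted p = 0.00215) and 1.49-fold lower with ITD-1 (adjusted p = 0.0469), the second call ending without any array other than TGFβ1 replicate 2. *Apol9b* was 2.42-fold higher with TGFβ1 than in controls (adjusted p = 0.00876). *Sdc3*, the proteoglycan syndecan-3, was 1.92-fold lower with ITD-1 than in controls (log2 difference -0.94, adjusted p = 0.00508) and was higher with TGFβ1 than with ITD-1 (log2 difference 1.41, adjusted p = 1.64e-05). *Ddx60*, a helicase gene of RNA sensing, ran the other way, 2.16-fold lower with TGFβ1 than with ITD-1 (log2 difference -1.11).

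*Gbp4*, a guanylate-binding protein gene, read 3.29, 3.20 and 3.19 with TGFβ1, 3.78, 3.50 and 3.67 with ITD-1 and 3.77, 3.63 and 3.88 in controls, and fell by 0.54 with TGFβ1 (standard error 0.09, adjusted p = 0.00684). On every array *Gbp4* lay below 4.14, the median of the tested probe set means. Its neighbours *Gbp8*, *Gbp9* and *Gbp10*, named here after their values were seen, fell by 0.67 (adjusted p = 0.0342), 0.82 (adjusted p = 0.0096) and 0.54 (adjusted p = 0.0282). The calls of *Gbp8* and *Gbp10* ended when single arrays were left out (adjusted p 0.0558 to 0.127 without any 1 of 7 arrays for *Gbp8*, and 0.0508 to 0.109 without any 1 of 5 for *Gbp10*), and that of *Gbp8* also with the replicate block (adjusted p = 0.0502). The 3 members *Gbp2*, *Gbp3* and *Gbp7*, in a second run of Gbp genes, had differences of 0.12 or less in size.

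Around MHC class I, 1 of 23 genes was higher with TGFβ1 than in controls and none lower (3.65% and 2.78% of all probe sets). Against ITD-1 5 were higher and none lower (5.92% and 4.26%). *H2-K1*, a heavy chain gene, read 6.47, 6.97 and 7.07 with TGFβ1, 5.59, 5.76 and 5.90 with ITD-1 and 5.84, 5.86 and 5.13 in controls. The TGFβ1 arrays lay above the other 6, 2.34-fold over control (log2 difference 1.23, standard error 0.21, adjusted p = 0.00734), and the call ended with the replicate block when the ITD-1 arrays were left out (adjusted p = 0.0546). *Calr*, *Pdia3* and *Erap1*, which encode the chaperones calreticulin and ERp57 and a peptide-trimming protease, were 1.34-fold, 1.24-fold and 1.42-fold higher with TGFβ1 than with ITD-1. The calls of *Pdia3* (adjusted p 0.0508 to 0.0812 without any 1 TGFβ1 array) and *Erap1* (0.05 to 0.123 without any 1 of 7 arrays) depended on single arrays. None of 7 proteasome activator and constitutive subunit genes was called in any comparison. Of all probe sets 6.43% were called with TGFβ1 against control, 0.636% with ITD-1 against control and 10.2% between the treatments. *Psmb7* had the smallest p of these 7 genes (difference -0.27 with TGFβ1, adjusted p = 0.14). Of 14 MHC class II genes *Rfx5*, a regulator of MHC transcription, was higher with TGFβ1 than with ITD-1 (adjusted p = 0.0333, and 0.051 to 0.1 without any 1 of 8 arrays). That is 1 of 14, beside 10.2% of all probe sets, and none of the 14 was called against control.

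**Figure D5:**
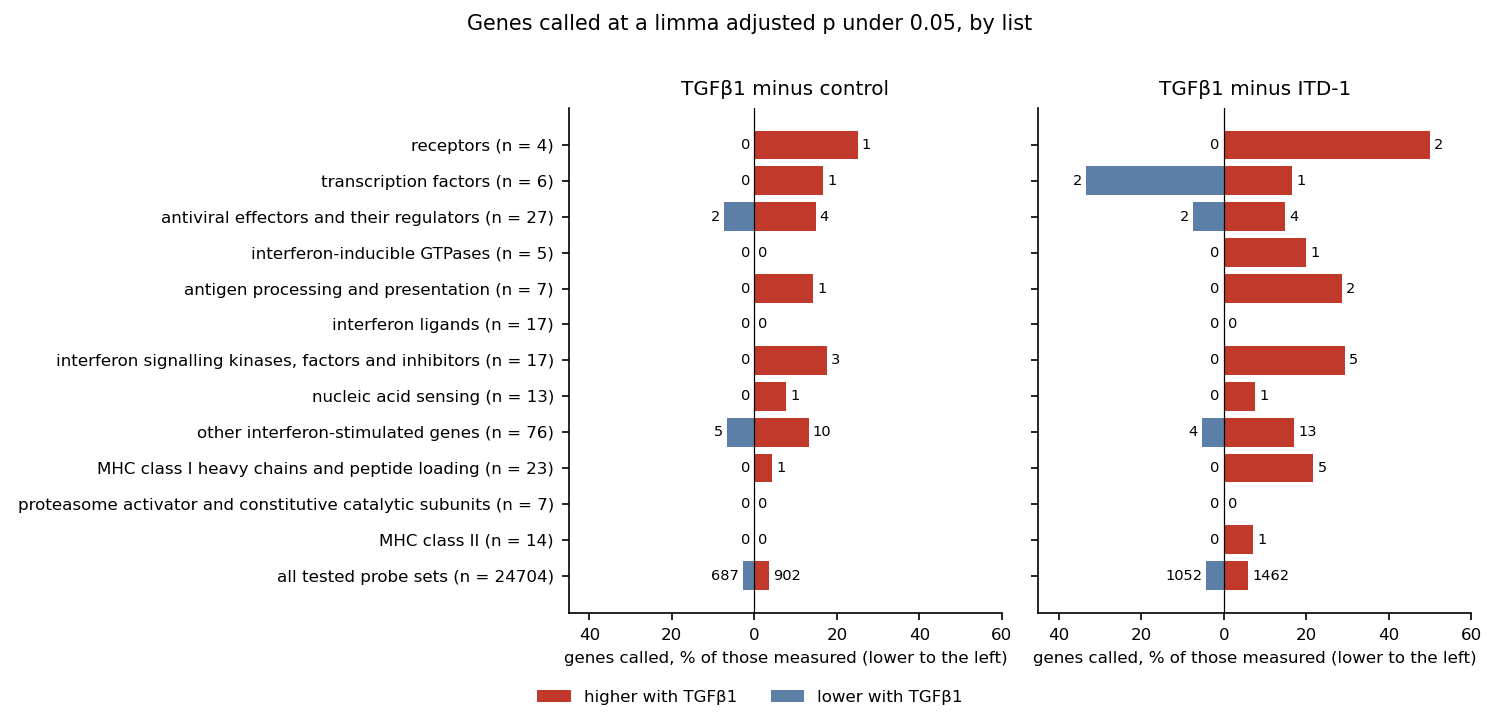
Share of measured genes called at a limma adjusted p under 0.05 in each list, higher to the right and lower to the left, for TGFβ1 against control and TGFβ1 against ITD-1, with the number called beside each bar and the number measured in brackets. All tested probe sets stand at the bottom, with 902 higher and 687 lower against control, and of 17 ligand genes none was called.

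Markers of the labelled cells were present on all arrays, with group means of the 9 myogenic genes from 6.50 to 12.6. *Ptprc*, which marks leukocytes, read 2.83 to 2.90 over the 9 arrays. The 12 leukocyte genes averaged, as the log2 of their mean signal, 3.72 to 3.81 with TGFβ1, 3.78 to 3.95 with ITD-1 and 3.79 to 3.82 in controls. Of these *Itgam* fell by 0.74 with TGFβ1 (adjusted p = 0.0085) and the other 11 were not called. None of 5 endothelial and 4 fibroblast genes was called with either treatment against control (6.43% of all probe sets with TGFβ1 and 0.636% with ITD-1). Of 3 Schwann cell and pericyte genes *Rgs5*, which pericytes express, was lower with both treatments (log2 difference -1.28 with TGFβ1 and -1.02 with ITD-1). In controls *Rgs5* read 8.48, 8.42 and 8.83. The other 2, *Sox10* (3.89, 3.91 and 3.89 in controls) and *Cspg4* (4.25, 4.47 and 4.47), were not called with either treatment. Of the myogenic genes *Ckm*, muscle creatine kinase, was higher with TGFβ1 (log2 difference 0.93) and *Myh3*, embryonic myosin, lower (-0.31). The *Myh3* call was lost without any 1 control array or TGFβ1 replicate 1 or 2 (adjusted p 0.0583 to 0.0876), with cyclic loess (adjusted p = 0.0543), and with the replicate block when the ITD-1 arrays were left out (adjusted p = 0.0523). The part of these markers in the results was not tested. In such bulk samples fewer cells of a type and less RNA per cell cannot be told apart. As a check of the treatment, *Fn1* was 3.04-fold higher with TGFβ1 than in controls and 1.70-fold lower with ITD-1 (a call lost without any 1 control array, adjusted p 0.0587 to 0.0747), and *Smad7* was 1.89-fold higher with TGFβ1. Median log2 signals lay between 4.09 and 4.19 per array, and arrays correlated at 0.992 to 0.996 within groups and 0.983 to 0.995 between them.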

How the data were processed

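Gene expression was measured in 3 TGFβ1, 3 ITD-1 and 3 control cultures. The authors normalized the arrays by RMA with a custom chip definition and deposited log2 values per probe set, already background-corrected, quantile normalized and summarised, which draws in extreme changes. The processing notes also name Partek. A genome build for the deposited values is not given in the sources used here, and GRCm38.p6 is the build of the RefSeq tables. Of 25428 probe sets, 24704 with 1 gene symbol were tested, 723 had no symbol and 1 repeated a symbol. The number of arrays limits the precision.

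Groups were taken from the sample titles. All 9 arrays were fitted with limma 3.58.1 in R 4.3.3 (lmFit, eBayes, group means, 3 contrasts, two-sided), with Benjamini-Hochberg adjustment over all tested probe sets. No filter on low values was applied, and 37 members pass one at the median level. The 12 members below it were *Isg15*, *Ifitm1*, *Mx1*, *Mx2*, *Oas1a*, *Oas2*, *Parp9*, *Parp14*, *Gbp2*, *Gbp3*, *Psmb8* and *Psmb9*. The steps were tested on simulated data. The study's methods used an analysis of variance at an unadjusted p under 0.05 and at least 1.5-fold, which was run as an alternative.

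Members and lists were chosen with earlier results of these data known. Named with values per array were members called in any comparison and, in each role, the 2 with the smallest adjusted p for each treatment, and from the other lists up to 4 called genes per comparison. *Bst2*, *Gbp8*, *Gbp9*, *Gbp10* and *Oasl1* were added after their values were seen. Other alternatives were median centring, cyclic loess, a filter at the median level, trended and robust eBayes, a fit of the 2 groups compared, array weights, the replicate block, unnamed probe sets and leaving out each array. A block in only the TGFβ1 and control arrays was added after seeing the data.

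Pairing was checked by correlating residuals of arrays with the same replicate number. For TGFβ1 and control they gave 0.138, 0.155 and 0.305, all over 0.1, and were treated as possibly paired, though the labels state no pairing and TGFβ1 replicate 2 with control replicate 1 gave 0.102. For ITD-1 and control they gave 0.146, -0.0661 and -0.0707, and for ITD-1 and TGFβ1 0.0869, -0.113 and -0.117.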

Additional observations from a re-analysis of the deposited data

How the results depend on the processing

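Of the 9 members called for TGFβ1 against control 3 were called under every alternative, and 7 of the 14 called for TGFβ1 against ITD-1, apart from the study's fold criterion. No direction reversed for a called value. The count of 9 became 4 by the analysis of variance adjusted over all genes, 14 with array weights, 9 with the replicate block, 4 with that block in only the TGFβ1 and control arrays, and 5 to 11 when single arrays were left out. The count of 14 became 9 by the analysis of variance, 7 under the study's criteria, 14 with the replicate block and 10 to 16 without single arrays. For ITD-1 against control it stayed at 0 members throughout, and the replicate block changed no other count of members.

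Over all probe sets, the study's criteria gave 825 calls for TGFβ1 against control in place of 1589 and 1316 for TGFβ1 against ITD-1 in place of 2514, and leaving out single arrays gave 1057 to 1726 and 1899 to 2431. For ITD-1 against control the 157 calls became 18 by the analysis of variance, 63 with only the arrays of both groups, 102 with the replicate block and 37 to 147 without single arrays. With 3 arrays a group, small differences of dim genes cannot be resolved, and a p over the threshold does not show that groups were alike.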
